A study of Mus musculus with 4 samples.

Results

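Nkx2-5, Gata4, Gata5, Gata6, Mef2a, Mef2c, Mef2d, Hand1, Hand2 and Myocd encode the core transcription factors of the heart, and the ATAC-Seq peaks at these 10 of 21755 protein-coding genes of the mouse were described in endothelial and non-endothelial heart nuclei. The genes were taken by name from a fixed list of cardiac regulators and not by a threshold on their peaks, though earlier results of these data were known. A peak was given to a gene if it overlapped one of its annotated transcript starts +/- 250 bp, if its summit lay within the gene record, or if its summit lay within 100 kb of the record and no other protein-coding gene was nearer. Under that rule the 10 genes held 151 of the 78912 peaks of non-endothelial nuclei and 136 of the 65008 peaks of endothelial nuclei. Peaks of the lists that overlapped each other were merged, which gave 156 regions for the 10 genes out of 86649 regions in all, and 79916 of all regions had a protein-coding gene under the same rule.

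The nuclei came from hearts of male C57BL/6 mice of 8 to 12 weeks that carried both the Cdh5-Cre transgene and the NuTRAP reporter. NuTRAP marks nuclei with GFP once Cre has acted, and Cdh5 drives Cre in endothelial cells, so GFP+ nuclei are those of cells of endothelial descent. GFP- nuclei are a mixture of all other heart cells, among them cardiomyocytes. How macrophages and further cell types were divided between the gates was not measured. Tn5, a transposase that cuts accessible DNA, was applied to 100 to 50000 sorted nuclei, and 2 replicate libraries were made per population. The authors called 1 list of peaks from both replicates of a population together, so every value here is 1 value per population, differences between the lists have no replicate check, and no test was made. Because area, the signal that the peak caller sums over a peak, depends on each list's own calling, a peak is given here by its percentile rank by area in its own list, from 0 for the lowest to 100 for the highest. In pooled nuclei, a site open in fewer nuclei and a site less open in each nucleus cannot be told apart. A rank difference is the GFP+ rank minus the GFP- rank, in points, with 0 standing in where a list has no peak. A point of rank covers more area at the top of a list than lower down. Among Gata4 peaks of the GFP- list, ranks 94.3 and 99.6 stood for areas of 5724 and 14228, and ranks 49.0 and 53.8 for 727 and 833. Equal differences in points are thus not equal differences in area.

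These factors bind DNA together in developing and adult cardiomyocytes. GATA4, GATA5 and GATA6 are zinc finger proteins, NKX2-5 is a homeodomain protein, MEF2A, MEF2C and MEF2D are MADS box proteins, and HAND1 and HAND2 are basic helix-loop-helix proteins that bind E-boxes with a partner. Myocardin, the product of Myocd, does not bind DNA itself but is carried to CArG boxes by serum response factor and switches on smooth and cardiac muscle genes. Several of these factors also act outside cardiomyocytes, GATA4, GATA6 and HAND2 for example in cardiac fibroblasts and in the endocardium, and MEF2 proteins in endothelial cells.

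The sequences that follow are those under the start peaks and regions on which the description turns. They are written 5′ to 3′ along the gene's strand from the GRCm38.p6 assembly, the build of the deposited coordinates. Capitals mark the words searched on both strands, which are AGATAA for GATA factors, TTAAGTG for NKX2-5, CATCTG for HAND E-boxes and AGGAAGT for ETS factors, beside the MEF2 box and the CArG box. The NKX2-5 word and both boxes occur in none of these sequences. Regions are shown as the 300 bases around their summits, and promoters as the bases before the start, cut short where another transcript's exon begins. A match describes the letters and is not a measure of binding.
Nkx2-5 promoter, from 44 bp before the start at 26841565 and further upstream, chr17:26841609-26841815, minus strand, no word: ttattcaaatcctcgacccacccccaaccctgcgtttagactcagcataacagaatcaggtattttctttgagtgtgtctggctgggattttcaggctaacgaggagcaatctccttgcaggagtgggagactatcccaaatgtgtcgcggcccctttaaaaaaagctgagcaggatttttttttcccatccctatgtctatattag
Hand2 promoter, directly before the start, chr8:57320733-57320982, plus strand, 1 HAND and 1 GATA word: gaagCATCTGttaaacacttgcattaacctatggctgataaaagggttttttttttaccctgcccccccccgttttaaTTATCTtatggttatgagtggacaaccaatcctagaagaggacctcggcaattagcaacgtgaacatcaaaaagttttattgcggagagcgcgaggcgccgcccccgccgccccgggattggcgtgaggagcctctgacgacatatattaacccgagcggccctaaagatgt
Nkx2-5 upstream region with a peak in both lists, chr17:26850798-26851097, minus strand, 2 GATA words: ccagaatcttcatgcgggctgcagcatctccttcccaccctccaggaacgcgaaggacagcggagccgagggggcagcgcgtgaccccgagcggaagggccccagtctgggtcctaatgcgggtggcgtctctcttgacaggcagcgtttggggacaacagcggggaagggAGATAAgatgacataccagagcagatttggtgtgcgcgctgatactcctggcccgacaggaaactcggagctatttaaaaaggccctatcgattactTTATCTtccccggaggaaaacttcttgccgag
Hand2 downstream region with a peak in both lists, chr8:57328562-57328861, plus strand, 2 HAND words and 1 GATA word: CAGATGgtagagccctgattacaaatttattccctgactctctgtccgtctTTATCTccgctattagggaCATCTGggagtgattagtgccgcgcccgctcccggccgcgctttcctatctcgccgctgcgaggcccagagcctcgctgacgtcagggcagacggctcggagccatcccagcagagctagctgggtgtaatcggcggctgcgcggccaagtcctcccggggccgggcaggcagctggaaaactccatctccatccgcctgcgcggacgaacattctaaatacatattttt
Myocd intronic region with a peak in both lists, chr11:65209475-65209774, minus strand, 1 GATA word: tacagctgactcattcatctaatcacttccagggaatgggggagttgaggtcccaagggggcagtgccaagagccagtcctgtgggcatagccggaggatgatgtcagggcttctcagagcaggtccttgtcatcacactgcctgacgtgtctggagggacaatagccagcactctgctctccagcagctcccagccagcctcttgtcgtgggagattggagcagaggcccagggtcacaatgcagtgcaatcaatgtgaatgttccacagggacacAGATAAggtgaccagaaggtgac
Gata4 intronic region that ranked much lower in GFP+ nuclei, chr14:63240186-63240485, minus strand, 1 ETS word: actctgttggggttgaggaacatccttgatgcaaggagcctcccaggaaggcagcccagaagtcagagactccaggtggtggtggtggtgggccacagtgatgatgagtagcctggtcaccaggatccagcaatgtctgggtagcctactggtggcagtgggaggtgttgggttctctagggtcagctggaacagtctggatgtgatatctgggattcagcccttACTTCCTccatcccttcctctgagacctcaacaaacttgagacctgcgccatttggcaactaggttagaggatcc
Hand2 downstream region found in the GFP- list only, chr8:57340844-57341143, plus strand, 1 HAND and 1 ETS word: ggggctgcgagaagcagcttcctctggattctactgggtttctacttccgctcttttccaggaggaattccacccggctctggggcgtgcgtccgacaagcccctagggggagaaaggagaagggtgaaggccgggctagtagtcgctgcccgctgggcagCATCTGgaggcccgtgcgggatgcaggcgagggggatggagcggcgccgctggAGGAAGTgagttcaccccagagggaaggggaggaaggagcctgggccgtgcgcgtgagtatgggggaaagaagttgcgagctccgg
Mef2d intronic region found in the GFP+ list only, chr3:88159917-88160216, plus strand, 1 HAND and 1 ETS word: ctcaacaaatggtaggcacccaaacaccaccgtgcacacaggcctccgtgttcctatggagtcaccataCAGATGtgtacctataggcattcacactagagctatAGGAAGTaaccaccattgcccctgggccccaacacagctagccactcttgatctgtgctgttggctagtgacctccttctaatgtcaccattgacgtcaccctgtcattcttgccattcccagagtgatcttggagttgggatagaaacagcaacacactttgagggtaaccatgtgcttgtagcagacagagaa

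The sort was first read from marker genes of the cell types, by the highest peak at any of their starts. All 8 endothelial markers had a start peak in the GFP+ list and 5 had one in the GFP- list, with Pecam1, Erg and Emcn lacking one there. Cdh5 ranked 17.96 in GFP- and 85.3 in GFP+ nuclei, Tie1 48.3 and 87.9, and Egfl7 72.6 and 98.7, while Tek had the opposite order, 81.1 and 54.1. Of 8 fibroblast markers, 6 had a start peak in the GFP- list and 2 in the GFP+ list, with Col1a2, Dcn, Dpt and Tcf21 in the GFP- list only. Pdgfra ranked 96.5 in GFP- and 87.0 in GFP+ nuclei, and Col1a1 95.6 and 80.7. Of 8 mural markers, 8 had a start peak in the GFP- list and 4 in the GFP+ list, with Pdgfrb, Rgs5, Notch3 and Acta2 in the GFP- list only. Kcnj8 ranked 83.4 and 49.1, Cspg4 85.6 and 76.1, Abcc9 79.2 and 70.0, and Myh11 73.7 and 60.3. Cardiomyocyte markers had a start peak in both lists at 7 of 8 genes, with ranks from 82.7 to 100.0 in GFP- and from 79.6 to 100.0 in GFP+ nuclei, and Nppa had none in either. A start peak was present for 1 of 8 macrophage and 2 of 8 Schwann cell markers in each list, of which Erbb3 ranked 78.4 and 29.1. How many nuclei of other types each gate held, and what part they have in the peaks at the 10 genes, was not tested.

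Of the 10 genes, 9 had a start peak in GFP+ and in GFP- nuclei, and Hand1 had none in either list. None had a start peak in one list alone, where 4.71% of all genes with a start peak had it in the GFP- list only and 1.46% in the GFP+ list only. Over all protein-coding genes, 61.8% had a start peak in the GFP- list and 59.8% in the GFP+ list. The 10 genes have 36 separate start sites when transcript starts within 500 bp are joined, of which 19 had a peak in the GFP- list, 18 in the GFP+ list, 17 in both and 16 in neither. The median of the highest start ranks was 98.7 in the GFP- list and 94.3 in the GFP+ list over the 9 genes, against 90.5 and 89.3 over all genes with a start peak. The ranks differed between the lists by no more than 5 points at 6 of the 9 genes, or 66.7%, which is below the 80.5% of all 12802 genes with a start peak in both lists. At Gata5, the GFP+ rank was more than 20 points lower, where 7.33% of all genes with a start peak showed such a difference, and at none was it more than 20 points higher, against 1.94% of all genes.

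**Figure D1:**
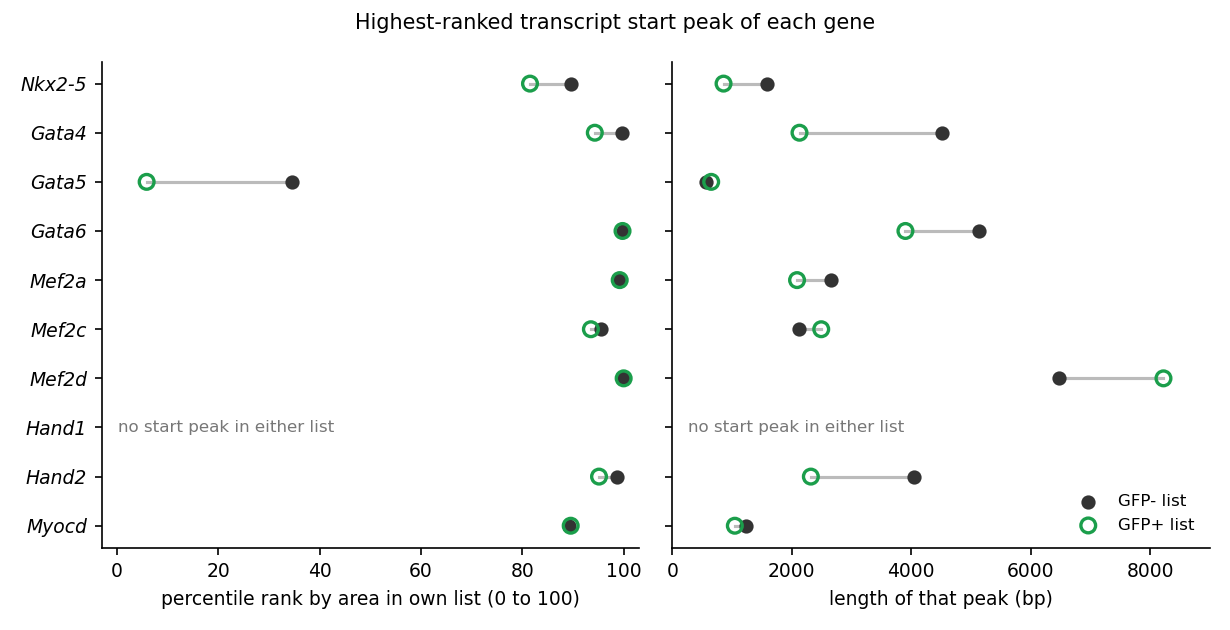
The left panel gives the percentile rank by area, from 0 to 100, of the highest start peak of each gene in the GFP- list (filled dark points) and the GFP+ list (open green circles), and the right panel gives the length of that peak in bp. Gata6, Mef2a and Mef2d stood above rank 99 in both lists, Gata5 stood at 34.6 and 5.89, Hand1 had no start peak, and the start peaks of Nkx2-5, Gata4 and Hand2 were shorter in the GFP+ list.

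The start peaks of the GATA genes spanned nearly the whole range of ranks. Gata6 (chr18:11052064-11085635, plus strand), which is needed for early mesoderm and outflow tract development, had start ranks of 99.8 in GFP- and 99.7 in GFP+ nuclei, the 154th and 167th largest peaks of their lists. Gata4 (chr14:63198922-63271692, minus strand), a regulator of cardiomyocyte number and of contractile genes, ranked 99.6 and 94.3 at the start site 26.4 kb inside its record, and 94.3 and 87.3 at the 2 start sites further upstream. That Gata4 peak measured 4508 bp in the GFP- list and 2130 bp in the GFP+ list. Gata5 (chr2:180325133-180334699, minus strand), known for its part in endocardial and valve development, had by far the weakest start peak, of 563 bp at rank 34.6 in GFP- nuclei and of 651 bp at rank 5.89 in GFP+ nuclei. In both populations the order was Gata6, Gata4 and Gata5.

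The MEF2 genes had some of the highest start peaks of the whole lists. Mef2d (chr3:88142372-88172086, plus strand), which acts in the stress response of adult cardiomyocytes, ranked 99.9 in GFP- and 100.0 in GFP+ nuclei, in places 75 and 21 of the lists, with peaks of 6474 and 8225 bp. Mef2a (chr7:67231163-67372858, minus strand), the main MEF2 protein of the adult heart, ranked 99.02 and 99.19 at its upstream start site, with peaks of 2663 and 2089 bp, and its other 4 start sites had no peak. Near a second start site of Mef2d, 20.6 kb into the gene, a region ranked 73.07 and 73.04, and the GFP+ peak alone reached the start window.

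Mef2c (chr13:83504034-83667080, plus strand), which acts early in the heart tube and also in endothelial cells, had no peak in either list where its record begins, although 6 transcripts start there. Its highest start peak, with its summit 20.8 kb into the record, lay over 2 neighbouring start sites at rank 95.5 in GFP- and 93.5 in GFP+ nuclei. At the start site 68.3 kb into the gene the ranks were 81.2 and 84.7. The next start site, at 69.6 kb, had a peak of 1135 bp at rank 75.8 in the GFP- list. In the GFP+ list that peak was broken in a pair, of 286 bp at rank 37.6 over the start and of 570 bp at rank 62.2 beside it, so that the region as a whole ranked 75.8 and 62.2. The start site at 26.1 kb had a peak in the GFP- list alone, at rank 31.3.

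Hand2 (chr8:57320983-57324633, plus strand), required for the right ventricle and for sympathetic neurons, ranked 98.7 in GFP- and 95.1 in GFP+ nuclei at its single start. The peak was 4049 bp long in the GFP- list and 2320 bp in the GFP+ list, and the promoter printed above lies under both. Hand1 (chr11:57828705-57832818, minus strand), which acts in the left ventricle of the embryo, had no peak at either of its start sites. A single peak was assigned to it, 12.6 kb from its 5′ end on the downstream side, of 196 bp at rank 27.1 in GFP- and of 228 bp at rank 12.4 in GFP+ nuclei. No other gene of the 10 had fewer than 10 peaks in either list.

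Nkx2-5 (chr17:26838664-26845009, minus strand), among the earliest markers of cardiac progenitors, ranked 89.6 in GFP- and 81.5 in GFP+ nuclei at the start site 3.4 kb into its record, with peaks of 1582 and 858 bp. At the other start site, where the record begins, the GFP- list had a peak at rank 10.6 and the GFP+ list had none. Myocd (chr11:65176561-65269989, minus strand) had start peaks at 2 of 4 sites, and both were close in rank between the lists. The 5′ site ranked 85.4 and 83.8, and the internal site, 64.5 kb into the gene, ranked 89.3 and 89.5. Start peaks were shorter in GFP+ nuclei at 6 of the 9 genes, with a median length ratio of GFP+ to GFP- of 0.784, where 65.0% of 12802 genes had the shorter peak in GFP+ and the median ratio was 0.945. At Gata4, Gata6, Hand2 and Nkx2-5 the GFP- peak was matched by more than 1 GFP+ peak, of which the highest is given. At Mef2c and Mef2d, where the GFP+ peak was the longer, it was matched by 2 GFP- peaks, of which the highest is given.

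Most peaks of the 10 genes were found in both populations, at starts and away from them. In the GFP- list, 115 of 151 peaks of the 10 genes overlapped a GFP+ peak, which is 76.2% (Wilson 95% interval 68.8 to 82.3), and 36 did not, where 29.0% of the peaks of all protein-coding genes did not. In the GFP+ list, 127 of 136 peaks overlapped a GFP- peak, which is 93.4% (87.9 to 96.5), and 9 did not, where 13.0% of the peaks of all protein-coding genes did not. Of the GFP- peaks away from starts, 102 of 136 (67.1 to 81.5%) were shared, beside 65.7% over all genes, and of the GFP+ peaks 113 of 122, or 92.6% (86.6 to 96.1), beside 84.0%. The peaks of these genes were longer, with medians of 538.5 and 451 bp away from starts in GFP- and GFP+ nuclei against 410 and 395 bp. With the all-gene shares weighted to the rank deciles of the members' peaks, they came to 68.7% and 85.0%, of which the first lies within the members' interval and the second below it. When an overlap of 50% of both peaks was required, the shares away from starts became 58.8% beside 56.0% over all genes in the GFP- list and 64.8% beside 69.6% in the GFP+ list, so that the GFP+ share was then under that of all genes and both lay within the members' intervals. These intervals cover counting error only, and peaks of a gene are not independent of each other.

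Merged into regions, the 10 genes had 111 with a peak in both lists, or 71.2%, 36 in the GFP- list only and 9 in the GFP+ list only. Of the 79916 regions of all protein-coding genes, 50852, or 63.6%, had a peak in both lists. A further 21145 were of the GFP- list only and 7919 of the GFP+ list only. At the 10 genes, a region with a peak in one list only was mostly of low rank, with a median of 17.4 for the GFP- list and 14.9 for the GFP+ list, against medians of 67.7 and 61.4 for regions in both. All 38 regions above rank 80 in GFP- nuclei had a GFP+ peak, as had 97.0% of the 15225 such regions of all genes. Single GFP- regions were more often broken into several GFP+ peaks than the reverse, in 13 against 4 of the 111 regions, and over all merged regions with a peak in both lists this was so in 3.44% against 1.31%. Within the 156 regions, GFP- peaks covered 146945 bp and GFP+ peaks 113064 bp, a ratio of 0.769, where the whole lists had a ratio of 0.803. By gene, the ratio was 0.558 at Gata4, 0.645 at Myocd and 0.931 at Mef2d. Counting only peaks given to the 10 genes would put the GFP+ length at 104737 bp, because a GFP+ peak of 8327 bp in a Gata5 region lies nearer to Slco4a1.

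**Figure D2:**
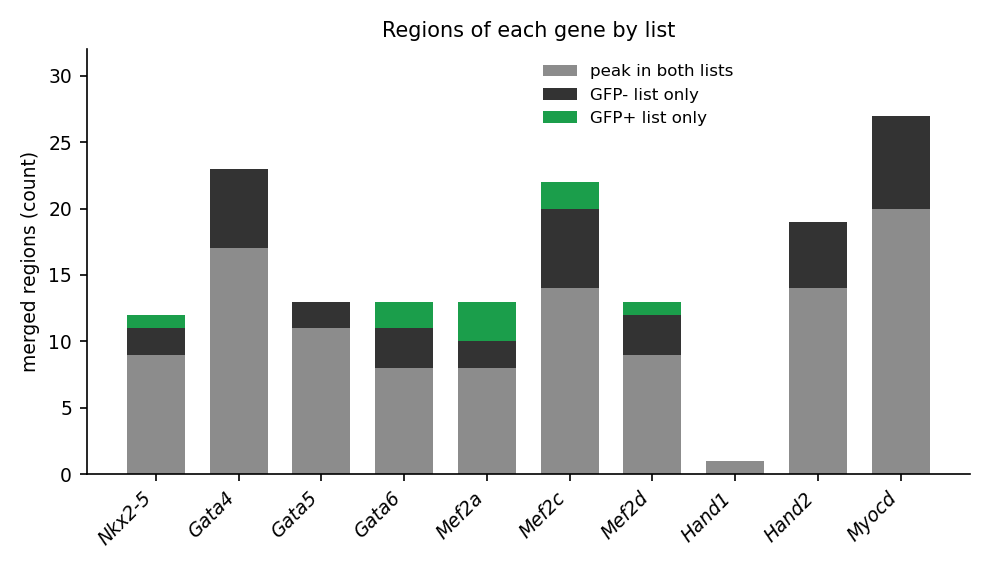
Stacked bars give the number of merged regions of each gene with a peak in both lists (grey), in the GFP- list only (dark) and in the GFP+ list only (green). Myocd had 27 regions and Hand1 had 1, and the 9 regions of the GFP+ list only lay at Mef2a, Mef2c, Gata6, Mef2d and Nkx2-5.

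The rank of the regions was on balance lower in GFP+ nuclei. Over the 156 regions the median rank difference was -5.92 points, where it was -3.69 over all regions of protein-coding genes, and the difference was below 0 at 118 regions, or 75.6%, and above 0 at 38, where it was below 0 at 67.8% of all regions. More than 20 points lower in GFP+ were 34 regions, or 21.8%, where 23.0% of all regions were, and more than 20 points higher were 3, or 1.92%, where 7.47% of all regions were. The first share is close to that of all genes. Gata4, Hand2 and Myocd together held 22 of the 34 regions. As a share of the gene's own regions, this was 9 of 23 at Gata4, or 39.1%, and 7 of 19 at Hand2, or 36.8%. At Myocd, which had the most regions, it was 6 of 27, or 22.2%, near the 23.0% of all regions. At Nkx2-5 it was 3 of 12.

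**Figure D3:**
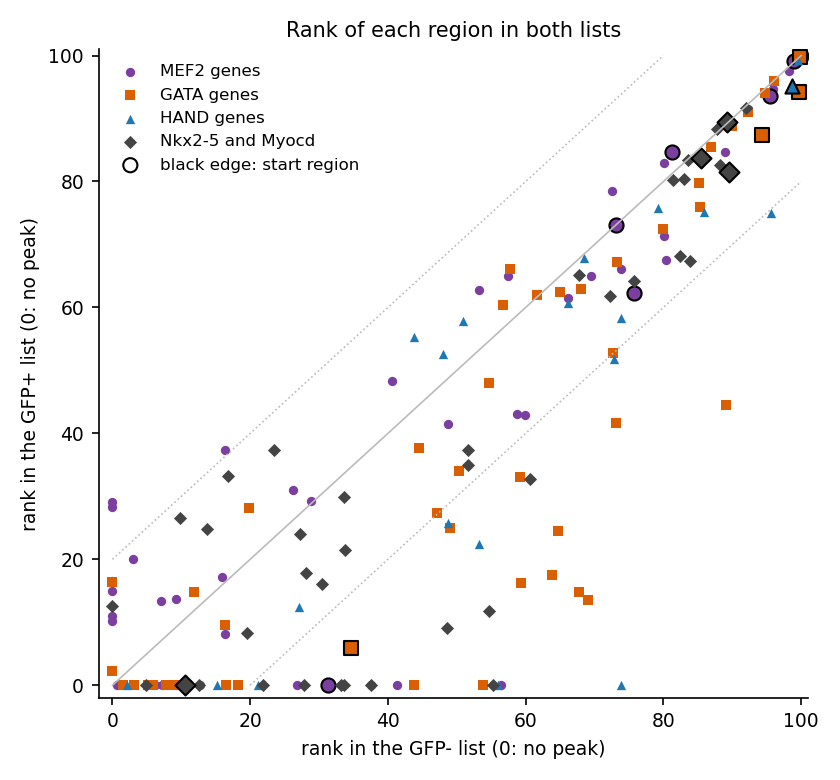
Each point is 1 of the 156 regions, placed by its rank in the GFP- list and in the GFP+ list, with 0 where that list had no peak, and colours and shapes give the gene families. The solid line marks equal ranks and the dotted lines a difference of 20 points, and start regions have a black edge. Regions above rank 80 in GFP- nuclei lie within 20 points of the solid line apart from a Gata4 and a Hand2 region, while 34 regions lie below the lower dotted line and 3 above the upper one.

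At Gata4, 22 of 23 regions ranked lower in GFP+ nuclei, or 95.7% beside 67.8% of all regions. The median difference was -9.39 points, and 9 regions were more than 20 points lower. The 3016 bp region 4.4 kb inside the gene, after the upstream starts, held a GFP- peak at rank 89.0, and its GFP+ counterpart was broken into 3 peaks with the highest at 44.6. The intronic region printed above, 31.4 kb from the 5′ end, ranked 69.0 and 13.6, the largest difference among regions with a peak in both lists. Just upstream, 1354 bp before the 5′ end, a region ranked 59.3 and 16.3, and an intronic region 5.7 kb inside the gene was found in the GFP- list only, at rank 53.8. The 5 regions more than 30 kb upstream were mixed. The highest, 46.8 kb before the 5′ end (chr14:63317170-63318630), ranked 89.9 in GFP- and 88.8 in GFP+ nuclei, and that at 37.5 kb ranked 73.2 and 67.3, while those at 48.4 and 50.5 kb ranked 49.0 and 59.2 against 24.9 and 33.0, and that at 34.8 kb was found in the GFP- list only. The regions at 46.8, 48.4 and 50.5 kb overlap the non-coding gene Gm49390. Peaks at Gata4 covered 25637 bp in GFP- and 14316 bp in GFP+ nuclei.

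Gata6 showed a like contrast over a shorter stretch. Its start peak had nearly equal ranks, while the regions 1872 and 2612 bp before the 5′ end ranked 63.9 against 17.5 and 67.7 against 14.7. A further region, 3450 bp before it, had a GFP- peak alone, at rank 18.3. The highest region away from the start lay 93041 bp from the 5′ end, downstream of the gene (chr18:11144519-11145675), and ranked 92.3 and 91.0. Over its 13 regions the median difference was -2.56 points. The start region and those upstream of it, 4 in all, overlap the non-coding gene 1010001N08Rik on the opposite strand.

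At Gata5, 11 of 13 regions had a peak in both lists, or 84.6% beside 63.6% of all regions, and the median difference was -5.20 points. Its highest region was of 11686 bp at chr2:180392072-180403757, with its summit 58.7 kb upstream, and held a single GFP- peak at rank 100.0 and a pair of GFP+ peaks. Of that pair, the peak of 2520 bp at rank 97.6 was given to Gata5, and the peak of 8327 bp at rank 99.99, from which the region takes its GFP+ rank, lies nearer to Slco4a1. That region holds the annotated muscle microRNA gene Mir133a-2, and 4 of the 13 regions, with 17952 of 23142 bp, overlap Mir133a-2, Mir1a-1 or the long non-coding gene B230312C02Rik. Without these 4, which the rule gave to Gata5 as the nearest protein-coding gene, 7 of 9 regions had a peak in both lists and the median difference was -5.36 points.

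**Figure D4:**
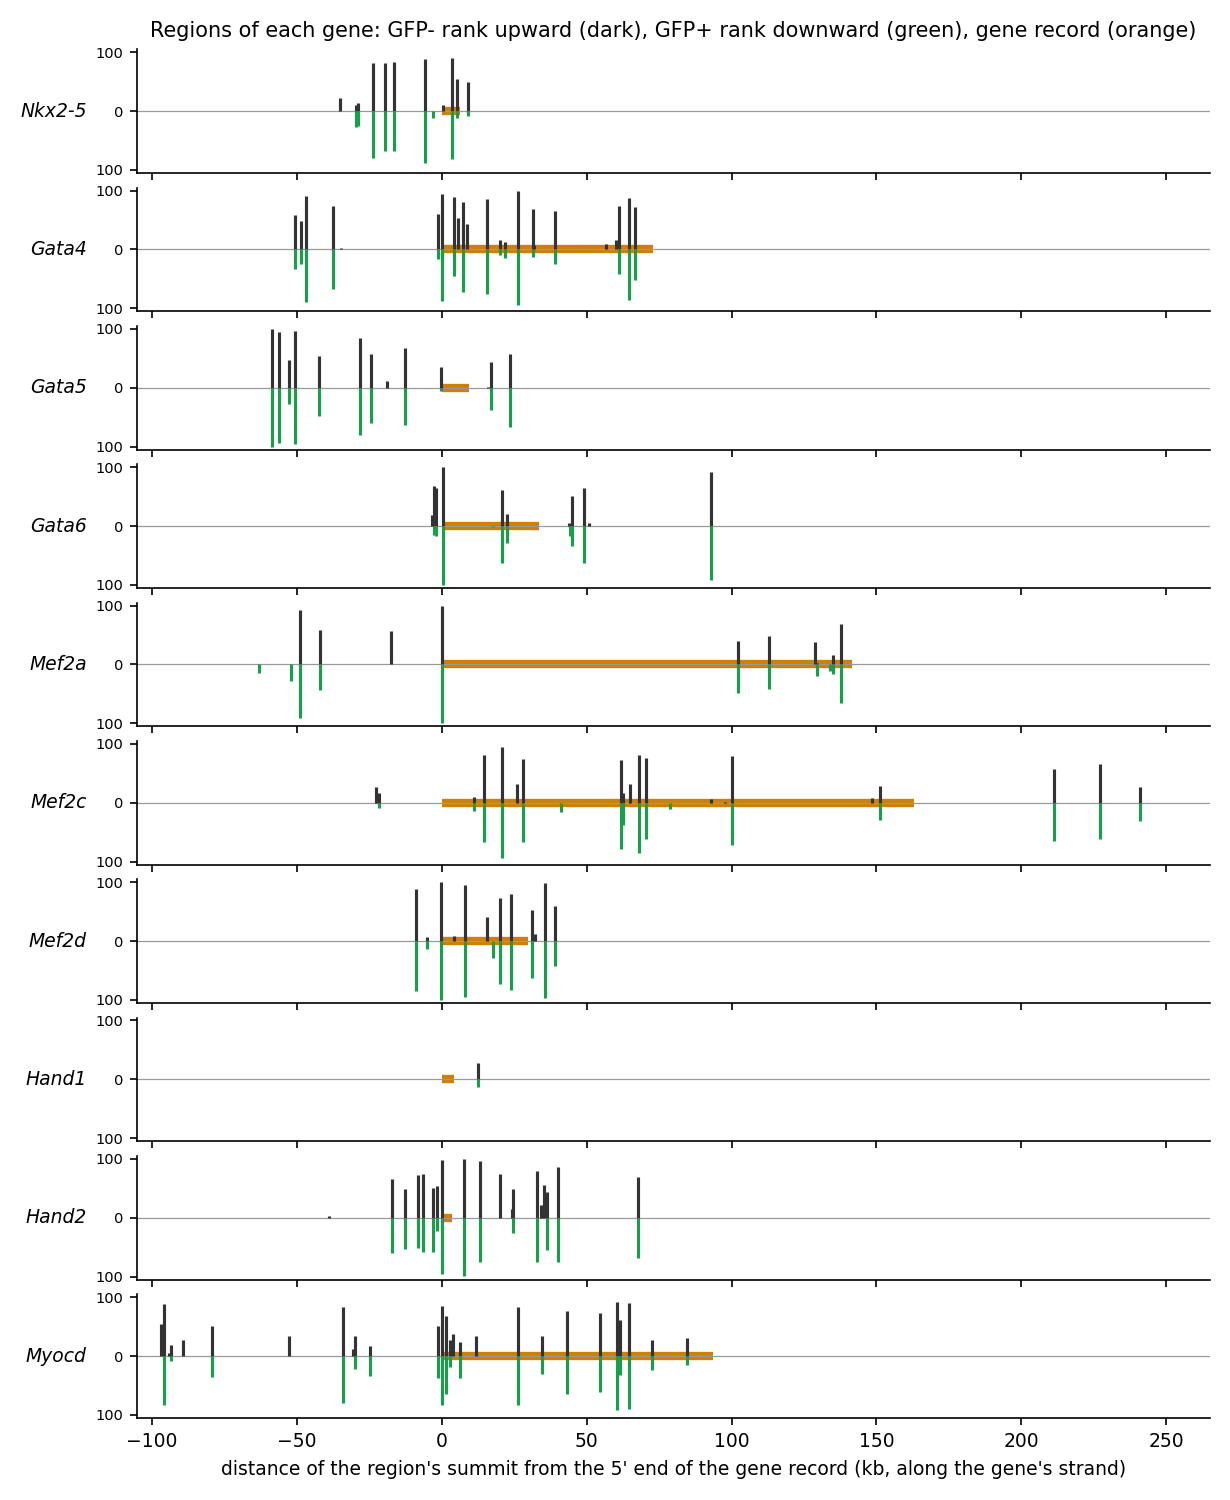
Every region of the 10 genes is drawn at the distance of its summit from the 5′ end of the gene record, in kb along the gene's strand, with its rank in the GFP- list upward (dark), its rank in the GFP+ list downward (green) and the gene record as an orange bar. The upward and downward lines mirror each other at most high regions, the GFP+ lines are shorter than the GFP- lines at 22 of 23 Gata4 regions and just upstream of Gata6, and Hand1 shows its single region.

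The 48 regions of the MEF2 genes had a median difference of -0.75 points, with 21 of them higher in GFP+ nuclei, while 17 of the 108 regions of the other 7 genes were higher. Over all protein-coding genes, 25701 of 79916 regions were higher. A peak in both lists was present at 64.6% of the MEF2 regions, near the 63.6% of all regions of protein-coding genes. It was present at 73.5% for the GATA genes, 15 of 20 for the HAND genes and 71.2% for all 10 genes. Among single genes the median difference was -3.33 points at Mef2c, 0.17 at Mef2a and -0.76 at Mef2d. Over all protein-coding genes, 7919 of 79916 regions were of the GFP+ list only, beside 6 of the 48 MEF2 regions and 3 of the 108 others. The MEF2 genes thus held 6 of the 9 regions of the 10 genes found in the GFP+ list only. The highest of these was the Mef2d intronic region printed above, 17.7 kb into the gene, at rank 29.2, followed by a region 52020 bp upstream of Mef2a at 28.3 and an intronic region of Mef2c at 16.6. The next were a region downstream of Gata6 at 16.4 and another upstream of Mef2a at 14.9, so that regions of the GFP+ list only were low in that list. An intronic region of Mef2c 62.4 kb from the 5′ end, 249 bp long, ranked 16.3 in GFP- and 37.3 in GFP+ nuclei, the largest difference in that direction among regions with a peak in both lists, and one of Mef2a ranked 2.95 and 19.98.

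For each MEF2 gene, the region away from starts with the highest mean of both ranks, among those with a peak in both lists, was as follows. Downstream of Mef2d the region at chr3:88176991-88178804 ranked 98.3 and 97.5, upstream of Mef2a that at chr7:67421016-67422460 ranked 92.2 and 91.5, and within Mef2c the intronic region at chr13:83603625-83604630 ranked 80.1 and 71.3. Within Mef2c another region was slightly higher in the GFP- list, at 80.3, and another in the GFP+ list, at 78.5. Mef2a also had a high region of the GFP- list only, 17.5 kb upstream, at rank 56.4. Of the 13 regions given to Mef2a, 7 overlap Lysmd4, a protein-coding gene on the opposite strand, and the peaks do not tell these genes apart. At Mef2d, 3 downstream regions, among them the one named here, overlap the antisense gene 1700113A16Rik.

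Hand2 lay among a dense row of regions on both sides. Its 19 regions had a median difference of -10.6 points, and 16 were lower in GFP+ nuclei, or 84.2% beside 67.8% of all regions. All 19 GFP+ peaks overlapped a GFP- peak, as did 87.0% of the GFP+ peaks of all protein-coding genes. The downstream region of 5293 bp whose centre is printed above, chr8:57324355-57329647, ranked 99.6 and 99.2 and so stood above the start of the gene in both lists. A region 13.4 kb downstream ranked 95.7 in the GFP- list, while in the GFP+ list it was broken into 4 peaks with the highest at 74.99. At 20011 bp, the region printed above had a GFP- peak of rank 73.8 and no GFP+ peak, which is the highest region of the 10 genes found in 1 list, and at 35.3 kb another ranked 56.0 in the GFP- list alone. The start region and every region upstream of it, 8 in all, overlap the non-coding gene Hand2os1 on the opposite strand, with which they are shared. Of the downstream regions, 5 overlap the non-coding gene 5033428I22Rik, among them those 13.4 kb and 20011 bp downstream.

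Myocd had the most regions, 27, of which 20 had a peak in both lists, or 74.1% beside 63.6% of all regions, and 7 in the GFP- list only. Of the 27, 24 ranked lower in GFP+ nuclei, or 88.9% beside 67.8% of all regions, with a median difference of -10.5 points. Each of the 20 GFP+ peaks of Myocd overlapped a GFP- peak, beside 87.0% of those of all protein-coding genes. The highest intronic region, chr11:65209113-65210163, ranked 92.0 and 91.6. The highest of the GFP- list alone lay 96.7 kb upstream, at rank 55.2, next to a region that ranked 88.2 and 82.7. Low-ranked regions 24.6 kb upstream and 6.3 kb into the gene had the opposite order, with 16.8 against 33.2 and 23.4 against 37.4. Of the 27 regions, 10 overlap the non-coding gene Gm12295, among them that at 24.6 kb and that at ranks 88.2 and 82.7.

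Nkx2-5 had 12 regions with a median difference of -9.34 points. The region 5.9 kb upstream (chr17:26849555-26851480), which holds the 2 GATA words printed above, ranked 87.8 in GFP- and 88.4 in GFP+ nuclei, above the gene's own start peak in the GFP+ list. Regions 16.5, 19.6 and 23.9 kb upstream ranked 83.9, 82.4 and 81.3 in the GFP- list and 67.4, 68.1 and 80.2 in the GFP+ list. At the 3′ side the differences were larger, since a region within the gene ranked 54.6 and 11.8 and one just downstream ranked 48.6 and 9.04. A region 29.7 kb upstream went the other way, at 9.76 and 26.5. The 6 regions from 16.5 kb upstream onward overlap the non-coding genes Gm17382 and Gm20468.

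Motif words were counted in windows of 300 bp around the summits of all regions. A GATA word was present in 29 of 156 regions, or 18.6% (13.3 to 25.4), beside 13.3% of all regions, and an NKX2-5 word in 10, or 6.41% (3.52 to 11.4), beside 2.89%. The MEF2 box, an A and T run between CTA and TAG, was found in 7, or 4.49% (2.19 to 8.97), beside 2.28%, and 6 of these were among the 48 MEF2 regions. The HAND word occurred in 20.5% (14.9 to 27.5) beside 23.4%, the ETS word in 11.5% (7.42 to 17.5) beside 10.2%, and the CArG box in 1 region. Only for NKX2-5 did the interval lie above the share of all regions both here and away from starts. Away from starts it was 7.14% (3.93 to 12.6) beside 3.24%. In windows of 200 bp it was 3.85% (1.77 to 8.14) over all 156 regions beside 1.73%. By list, away from starts, the NKX2-5 word was in 4 of 97 regions in both lists, or 4.12% (1.62 to 10.1) beside 3.07%. That interval holds the all-gene share. The word was in 4 of 34 regions of the GFP- list only (4.67 to 26.6%) beside 3.50%. In the GFP+ list only it was in 2 of 9 (6.32 to 54.7%) beside 3.43%. The GATA share away from starts was 18.6% (13.0 to 25.8) beside 15.2%, with the all-gene value inside the interval.

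**Figure D5:**
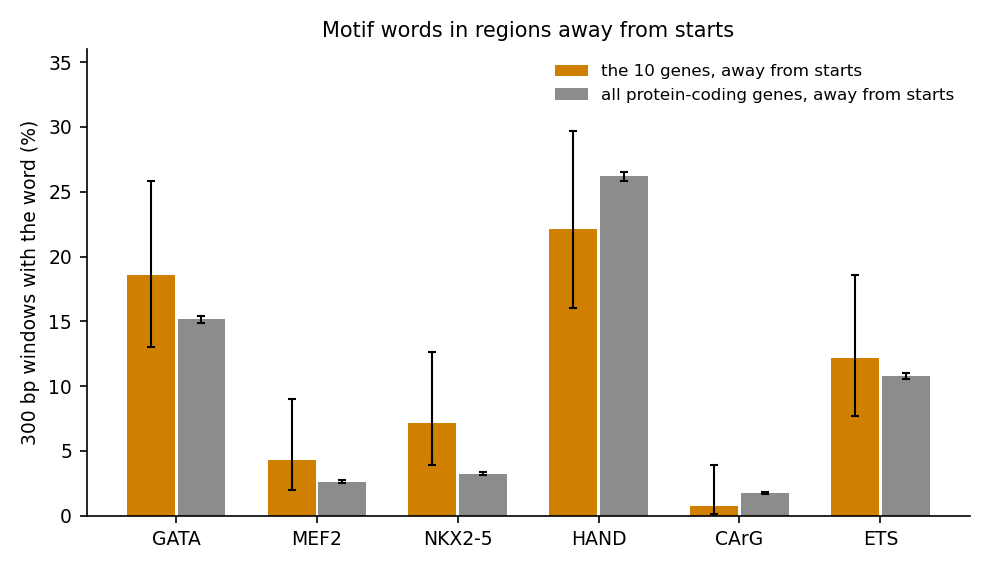
Bars give the percentage of 300 bp windows away from starts that held each word, for the 140 regions of the 10 genes (orange) and for 64514 regions of all protein-coding genes (grey), with Wilson 95% intervals for counting error. The intervals of the 10 genes hold the grey value for every word other than NKX2-5.

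By gene, GATA words were found in 8 of 27 Myocd regions (15.9 to 48.5%) and 3 of 12 Nkx2-5 regions (8.89 to 53.2%). They were in 7 of 49 regions of Gata4, Gata5 and Gata6 (7.10 to 26.7%), beside 13.3% of all regions. That share lay inside the intervals of Nkx2-5 and the GATA genes and below that of Myocd. HAND words were found in 8 of 20 regions of Hand1 and Hand2 (21.9 to 61.3%), an interval that holds the 23.4% of all regions. Among regions away from starts, those in both lists held a GATA word in 19 of 97 cases, or 19.6% beside 14.9% over all genes, and those of the GFP- list only in 6 of 34, or 17.6% beside 15.3%. An ETS word was held by 7 of 97 regions in both lists, or 7.22% (3.54 to 14.2) beside 9.54%, by 7 of 34 of the GFP- list only, or 20.6% (10.3 to 36.8) beside 10.6%, and by 3 of 9 of the GFP+ list only, or 33.3% (12.1 to 64.6) beside 17.5%. Each of the 3 ETS intervals holds its all-gene share. The base composition of the members' windows, with a median GC content of 50.3%, was near that of all regions, 51.3%.

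The genes that act with these factors were looked at in the same way. Of 18 partners and regulators, such as Tbx5, Tbx20, Srf and the friend-of-GATA genes Zfpm1 and Zfpm2, all had a start peak in both lists, and the ranks were within 5 points at 14, or 77.8%, near the 80.5% of all genes. Tbx5, a T-box partner of NKX2-5 and GATA4, ranked 87.4 in GFP- and 61.1 in GFP+ nuclei, and Isl1, a marker of cardiac progenitors, ranked 15.5 and 43.2. Of 13 target genes, 10 had a start peak in both lists, Tagln and Acta2 had one in the GFP- list only, at ranks 7.99 and 27.7, and Nppa had none. Of 8 other members of the same families, Gata2, Gata3 and Mef2b had a start peak in both lists and the others in neither. Gata2, the GATA gene of blood and endothelial cells, ranked 77.97 in GFP- and 93.18 in GFP+ nuclei, the reverse of the order at Gata4, and Gata3 ranked 46.2 and 36.4.

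Among these 39 genes, the one closest in its pair of start ranks was given for each member, by the distance in the plane of GFP- and GFP+ ranks over the 2 lists. It was Tnnt2 for Gata4 and for Hand2, at distances of 0.221 and 1.12 points, Hopx for Nkx2-5 at 3.19, Hdac5 for Gata6 at 0.0282, Meis1 for Mef2a at 0.30, Zfpm1 for Mef2d at 0.0357, Mef2b for Mef2c at 1.28 and Mrtfb for Myocd at 2.09. For Gata5 the nearest was Acta2, 9.10 points away, which had no GFP+ start peak. Hand1 was tied with the genes that had no start peak.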

How the data were processed

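ATAC-Seq was done on GFP- and GFP+ heart nuclei, with 2 replicate libraries each, which the labels name as replicates without giving separate animals. Per the study's methods and the submitters' processing notes, the authors used fastp for trimming, Bowtie2 (2.3.5.1 in the notes) for mapping to mm10, SAMtools for filtering and Picard for duplicates. Libraries were brought to a common number of reads, and Genrich, set for ATAC-Seq, called peaks on the 2 replicates of a population jointly, without mitochondrial, Y chromosome and blacklisted sequence. Calling on pooled replicates removes the spread between them, and longer peaks get larger areas and so higher ranks. The deposited signal is the area of a peak, and the deposited −log10 p-value belongs to its summit. The score that the authors deposited is the area per bp, limited at its maximum in most peaks, and it was not ranked. Read counts, depth per library and replicates are not analysed here, so no interval covers biological spread.

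Genes, transcripts and starts came from GENCODE M21 and sequence from RefSeq's GRCm38.p6, within whose chromosome lengths all peaks lie. Peaks were shared if they overlapped by at least 1 bp. The work ran in Python 3.11.15 (pysam 0.24.0, scipy 1.17.1, pandas 2.3.3, numpy 2.4.6), and overlaps, gene assignment and word search were tested on simulated data. The members and lists were chosen with earlier results of these data known. Named regions were each gene's highest start peak in each list and highest shared region away from starts by the mean of both ranks, and, over all 10 genes, the 5 highest regions of either list alone and the 5 largest differences in either direction among shared regions. Others are named beside these as their neighbours and were chosen after their values were seen, as were the words and members printed as sequence. List genes are named where a start peak was in 1 list only or the ranks differed by more than 20 points, and otherwise as examples. Overlap, threshold, flank, gene assignment, start window, ranking measure and motif window were varied.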

Additional observations from a re-analysis of the deposited data

How the results depend on the processing

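No paired analysis was possible because each list pools both replicates of its population, and leaving out a replicate was not possible for the same reason. Of 43 values from alternative settings, 37 stayed within 1.5 times a count or within the counting interval of a share or median, and 6 moved. Only the median rank difference could change sign, and it stayed below 0 in its 7 alternatives. With the nearest record taken among all annotated genes, non-coding ones included, the 10 genes kept 90 GFP- and 83 GFP+ peaks. When an overlap of 50% of both peaks was required, 60.9% of GFP- and 66.9% of GFP+ peaks were shared. Ranked by area per bp, the median rank difference was -3.31 points, and over 7 alternatives it ran from -6.76 to -3.31. In 200 bp windows the GATA word was in 12.8% of the members' regions (8.45 to 19.0), beside 8.83% of all regions of protein-coding genes. The start peaks of Mef2c and, in GFP+ nuclei, of Nkx2-5 were not counted when the 5′ end of the gene record alone was used, and that of Gata5 in GFP+ nuclei was lost in the upper 75% of peaks by area. The weighting of shares to the members' ranks and the covered length within merged regions were added after the data were seen. With 1 list per population, no difference in rank or length can be set against replicate spread, and a missing peak is a peak not called at this depth.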
